A study of Mus musculus with 10 samples.

Results

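The transcripts of 35 genes of the unfolded protein response and the integrated stress response were followed across 10 Affymetrix arrays of mouse embryonic fibroblasts (MEF), cells grown out of mouse embryos. Members were taken by gene symbol, and each was read through the probe set with the highest mean over the 10 arrays. All 35 listed genes had a group mean of at least 4 on the log2 scale and were kept, of 10632 genes tested in all. They form a group of 17 ATF4-type genes and a group of 18 endoplasmic reticulum (ER) genes, which holds 4 stress sensors and factors, 11 chaperones and foldases, and 3 genes of ER-associated degradation. Arrays came in 5 groups of 2. Cells with a conditional Dicer knockout (CDKO) were left untreated or were given 4-Orthohydroxy Tamoxifen (OHT in the titles) at 1 µM or 5 µM for 4 days. Wild-type (WT) cells were given 5 µM OHT for 4 days or were left untreated. All cells were grown in DMEM with 10% FBS, and total RNA was taken with Trizol. The study set the treated CDKO cells against the other 3 groups. Dicer cuts microRNA precursors, and tamoxifen metabolites are in common use to activate Cre recombinases that carry an estrogen receptor domain. Neither the Cre, the deleted exons, nor the embryo from which each culture came is given in the sources used here. The description calls all 10 samples conditional knockout, while the titles name 4 of them WT, and the titles were followed. The labels leave unsaid if the arrays of each pair are separate cultures, and the p-values may then measure technical spread only.

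The unfolded protein response is started by 3 sensors in the ER membrane, Ern1 (IRE1), Eif2ak3 (PERK) and Atf6, when unfolded proteins build up in the ER lumen. IRE1 splices the Xbp1 transcript and ATF6 is cut into a transcription factor, and both then raise chaperones, foldases and the machinery that sends misfolded proteins to the proteasome. PERK, like the kinases that sense lack of amino acids, haem or the presence of double-stranded RNA, phosphorylates eIF2α. That modification slows general translation but favours translation of ATF4, which switches on genes for amino acid synthesis and uptake together with Ddit3 (CHOP), Trib3 and Chac1. Much of ATF4 control is translational, and arrays read transcript levels only. Fibroblasts secrete collagen and keep a sizeable ER.

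The letters through which these factors are known to act were looked for in the promoter windows that RefSeq gives for GRCm38.p6, from 250 bases before to 50 bases after each gene's start, which covered 32 of the 35 members. The ER stress element (CCAAT, then 9 further bases, then CCACG), the site of ATF6, was present on either strand in 7 of 16 ER genes (43.8%), in 0 of 16 ATF4-type genes and in 37 of all 27025 genes (0.137%). The C/EBP-ATF composite element TGATGNAA, the site of ATF4 with a C/EBP partner, was present in 6 of 16 ATF4-type genes (37.5%), in 1 of 16 ER genes (Herpud1) and in 1219 of 27025 genes (4.51%). The unfolded protein response element TGACGTGG was in none of these windows and in 0.714% of all genes. No member's window held more than a single kind of these motifs. A match is a description of letters and not a measured binding site. ER stress elements are shown for Hspa5, the standard reporter of ER stress, for Pdia6 and Dnajc3, the chaperone genes that passed a test below, and for Canx, the carrier with the smallest spread over arrays. Composite elements are shown for Asns, a classical ATF4 target, for Atf3, the member with the largest positive value at 5 µM in CDKO cells, and for Nupr1, which passed a test below. Capitals mark the element, and each stretch is read 5′ to 3′ in the direction of the element.
Hspa5: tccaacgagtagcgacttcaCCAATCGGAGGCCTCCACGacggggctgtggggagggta
Pdia6: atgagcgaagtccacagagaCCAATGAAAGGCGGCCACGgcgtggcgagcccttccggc
Dnajc3: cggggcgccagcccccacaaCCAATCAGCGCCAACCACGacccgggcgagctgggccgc
Canx: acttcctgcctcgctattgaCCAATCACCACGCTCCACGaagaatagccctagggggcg
Asns: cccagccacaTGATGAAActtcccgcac
Atf3: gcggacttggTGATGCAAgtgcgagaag
Nupr1: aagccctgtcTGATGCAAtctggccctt
These lie upstream of the start of each gene. The Hspa5 stretch is chr2:34772005-34772063 on the plus strand, and the Pdia6 stretch is chr12:17266471-17266529 on the plus strand. The Dnajc3 stretch is chr14:118937807-118937865 on the plus strand, and the Canx stretch is chr11:50325780-50325838 on the minus strand. The Asns stretch is chr6:7693215-7693242 on the minus strand, the Atf3 stretch is chr1:191183426-191183453 on the plus strand and the Nupr1 stretch is chr7:126625563-126625590 on the plus strand. Counted along the gene, the elements start 65 (Hspa5), 98 (Pdia6), 105 (Dnajc3), 145 (Canx), 23 (Asns), 110 (Atf3) and 110 (Nupr1) bases before the gene's start. The elements of Atf3 and Nupr1 run opposite to their genes.

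Several features of the arrays bear on these genes. The probe set 1427941_at of Dicer1, the targeted gene, stood at 7.09 and 5.99 in untreated CDKO cells, 5.40 and 8.30 at 1 µM and 5.83 and 5.78 at 5 µM, against 7.64 and 7.19 in WT cells at 5 µM and 8.97 and 9.10 in untreated WT cells. On a second probe set, 1460571_at, the CDKO arrays ran from 5.49 to 6.55, against 5.90 and 5.94 in WT cells at 5 µM and 7.31 and 7.16 in untreated WT cells. The probes' place relative to the deleted exons is not given, so this is no check of the labels. Replicate 2 at 1 µM was above both untreated CDKO arrays, and some of the medians and counts that rest on it are given without it as well. The 18S ribosomal RNA control was raised on both arrays of untreated WT cells (11.6 and 11.2) and on replicate 2 of CDKO at 1 µM (10.2), and lay between 5.21 and 8.44 on the other 7. The signal of Gapdh probes near the 3′ end minus that near the 5′ end, a sign of RNA or labelling quality, was 0.894, 0.671 and 1.58 on these 3 arrays and at most 0.0686 elsewhere. The signal of spike-in controls was lower on 4 CDKO arrays, at 9.04 to 9.60 (replicate 2 of untreated cells, both at 1 µM and replicate 2 at 5 µM), than on the 6 others, at 10.5 to 11.2. The defining transcripts of fibroblasts were present, with 10 of 11 measured markers at 4 or more in every group. Macrophage and leukocyte markers were present too, with 11 of 14 at 4 or more in every group, while 4 of 5 endothelial and 3 of 4 plasma cell markers were under 4 in every group. In the plots of array summaries, the median chaperone value, centred on each gene's mean, was highest on the same 3 arrays that had raised 18S and high dividing-cell markers.

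**Figure D1:**
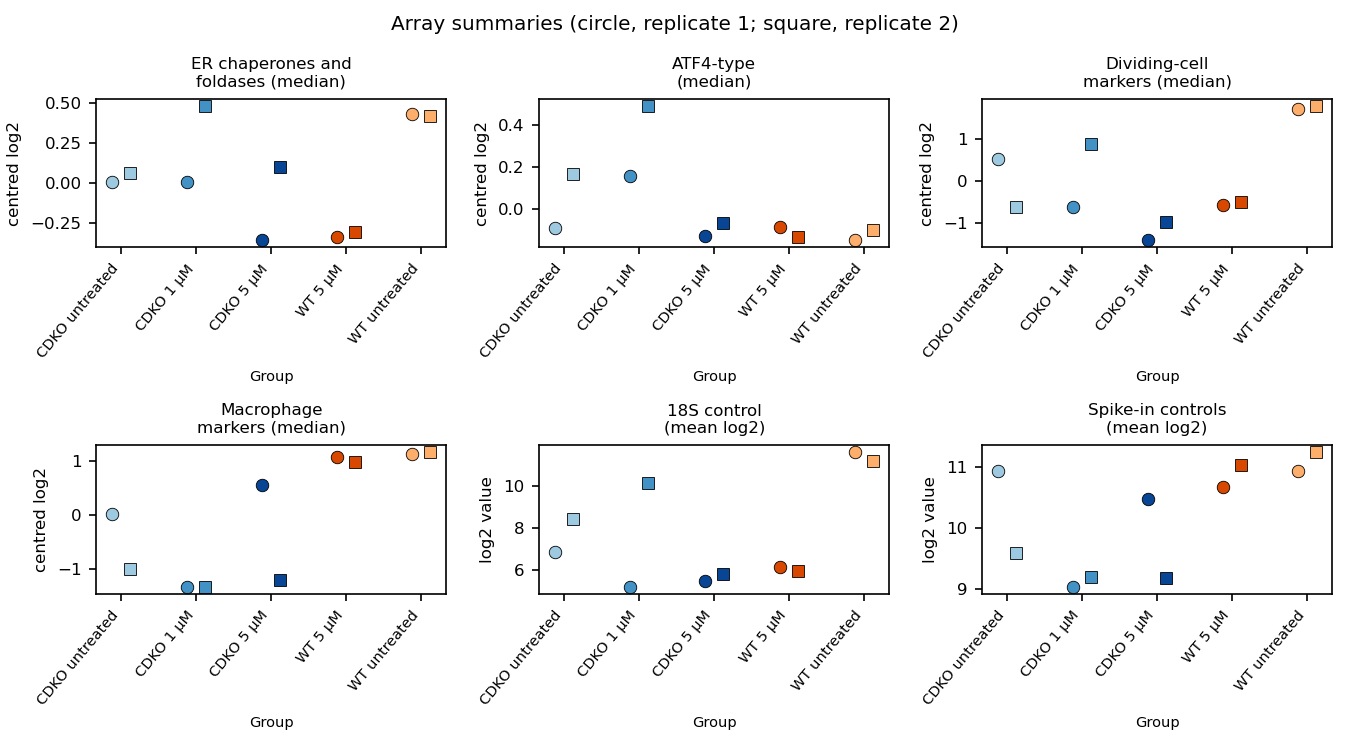
Summaries of each array by group (circles, replicate 1; squares, replicate 2), on a log2 scale; gene lists are medians of values centred on each gene's mean over the 10 arrays. Chaperones stood at 0.43 and 0.42 in untreated WT cells and at 0.48 on replicate 2 of CDKO at 1 µM, and between -0.36 and 0.10 on the other 7 arrays.

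The members differed widely in how much they moved at all. The distance between the highest and the lowest of the 10 arrays was smallest for Canx, the membrane chaperone calnexin (0.58), and largest for Slc7a5, the light chain of the LAT1 amino acid transporter (3.61). Pdia4, an ER foldase (3.14), Hyou1, the exchange factor that works with the chaperone BiP (2.85), Vldlr, a lipoprotein receptor and PERK-ATF4 target (2.74), and Atf3, a stress transcription factor (2.48), followed. For Pdia4, Hyou1, Sdf2l1, Atf5, Slc7a5, Vldlr, Trib3, Shmt2, Mthfd2, Xbp1, Hsp90b1 and Calr the lowest array was replicate 1 of CDKO at 5 µM. That array also had the lowest mean of fibroblast markers (10.8, against 11.8 to 12.4 on the others). How many of all genes were lowest there was not counted. In the ER group, untreated WT cells had the highest of the 5 group means for 9 of 18 genes and WT cells at 5 µM the lowest for 11 of 18. Over all tested genes the same groups were highest for 32.1% and lowest for 27%. In the ATF4-type group the highest mean was in CDKO cells at 1 µM for 7 of 17 genes (17.6% of all genes), or for 5 of 17 (12.7% of all genes) without replicate 2 of that dose. The lowest mean was in CDKO cells at 5 µM for 6 (35.3%, beside 21% of all genes) and in untreated WT cells for 6 (35.3%, beside 26.2%). The heat map shows the values of each array.

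**Figure D2:**
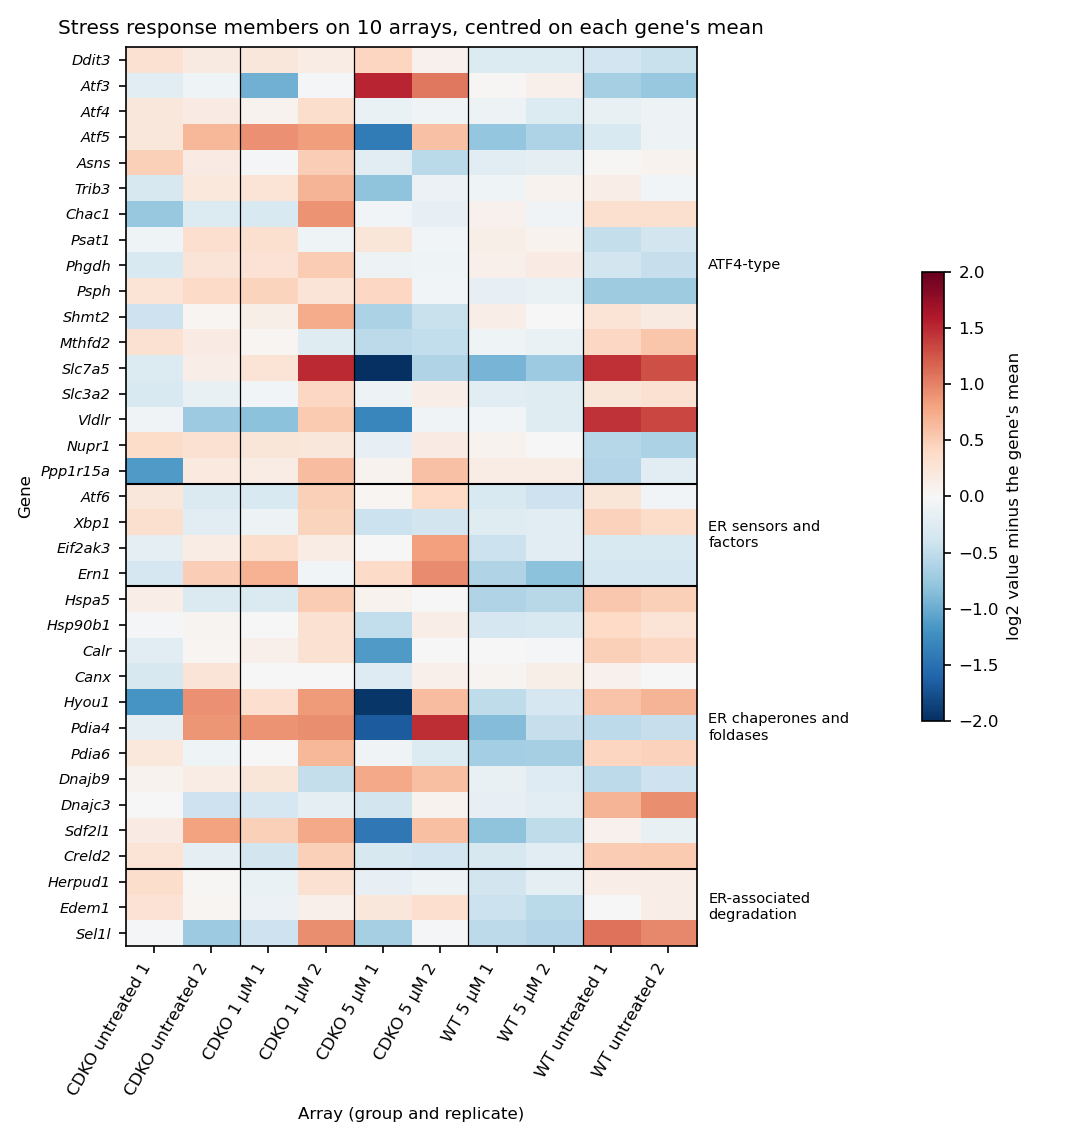
log2 value minus the gene's mean over 10 arrays for the 35 members (rows, by role) on each array (columns, by group and replicate); colour saturates at 2 in either direction. Most ER chaperones are red in untreated WT cells and blue or pale in WT cells at 5 µM, and the paired CDKO columns often differ from each other.

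In treated CDKO cells as a whole, none of the 35 members passed the test. Both doses together were set against untreated CDKO cells and both WT groups, each group weighing equally within its side, with limma across 20681 probe sets and a Benjamini-Hochberg adjusted p under 0.05. Of the 35 members 0 were called, against 4.08% of all probe sets, and 7 (20%) had an unadjusted p under 0.05, as did 19% of all probe sets. Those 7 were Ddit3, Atf3, Psph, Eif2ak3, Ern1 and Dnajb9 on the positive side and Mthfd2, a mitochondrial folate enzyme, on the negative side. Mthfd2 came nearest at -0.50 ± 0.12 (SE, adjusted p = 0.0748 in limma). The median log2 change was 0.16 for the ATF4-type genes and 0.05 for the ER group, beside 0.02 for all 10632 genes. Without the 3 arrays of raised 18S these medians were 0.04 and 0.12. The ER median was -0.13 without replicate 2 of CDKO at 5 µM, -0.07 without replicate 2 at 1 µM and 0.25 without replicate 1 at 1 µM. The ATF4-type median was 0.04 without replicate 2 at 1 µM and -0.01 with line as a term. Since 2 of the 3 control groups are WT, the difference between the lines enters this contrast. With line as a term, 0 of 20681 probe sets were called. Fewer cells of a kind and less RNA per cell cannot be told apart in such bulk samples. Leaving out replicate 1 of CDKO at 5 µM brought 2 calls, Atf5 (0.88) and Pdia4 (1.46), beside 2.93% of all probe sets in that fit. Leaving out either 1 µM array brought 1, Atf3 (0.89 without replicate 1, beside 3.77%) or Dnajb9 (0.65 without replicate 2, beside 5.82%). With a block for the spike-in class (lower or higher signal), Hyou1 was called lower at -1.41 (adjusted p = 0.0429 in limma), beside 259 of 20681 probe sets called in that fit. For Hyou1 the fit without the block gave -0.05 ± 0.57 (SE).

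In CDKO cells the dose of OHT was followed from untreated over 1 µM to 5 µM. Among the transcription factors of the ATF4-type group, Atf4 itself kept close values on the probe set used, with 0.64 between its highest and lowest array. It stood at 11.73 and 11.67 in untreated CDKO cells, 11.57 and 11.86 at 1 µM and 11.37 and 11.43 at 5 µM, against 11.40 and 11.22 in WT cells at 5 µM and 11.35 and 11.40 in untreated WT cells. Both arrays at 5 µM lay below both untreated CDKO arrays, by 0.30 ± 0.19 (SE), with a 95% interval of the change of -0.75 to 0.16. A second Atf4 probe set, 1438992_x_at, varied more, from 9.77 to 11.55 over the arrays. Its CDKO arrays at 5 µM overlapped the untreated ones, at -0.56. Ddit3, the pro-apoptotic factor CHOP, stood at 11.73 and 11.60 in untreated CDKO cells, 11.66 and 11.58 at 1 µM and 11.87 and 11.52 at 5 µM, against 11.15 and 11.15 in WT cells at 5 µM and 11.05 and 10.99 in untreated WT cells. The 6 CDKO arrays overlapped among doses, and all of them lay above the 4 WT arrays. The change of Ddit3 from untreated to 5 µM was 0.02 ± 0.20 (SE), with a 95% interval of -0.44 to 0.49.

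Atf3 gave the largest positive value of the members at 5 µM. It was at 6.43 and 6.56 in untreated CDKO cells, 5.69 and 6.61 at 1 µM and 8.17 and 7.70 at 5 µM, against 6.67 and 6.74 in WT cells at 5 µM and 5.98 and 5.88 in untreated WT cells. Both CDKO arrays at 5 µM were above the 8 other arrays. The change was 1.44 ± 0.32 (SE) against untreated CDKO cells (adjusted p = 0.188 in limma), and it was 1.79 ± 0.32 against 1 µM (adjusted p = 0.121), so that neither passed. In the spike-in classes taken separately, the CDKO array at 5 µM exceeded the untreated one by 1.73 and by 1.15.

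Against untreated CDKO cells, the targets of ATF4 did not all share a direction at either dose. Of the 17 ATF4-type genes, 11 had positive and 6 negative values at 1 µM. At 5 µM, 5 were positive and 12 negative. Between the doses most moved the same way, with 15 of 17 lower at 5 µM than at 1 µM. The median of that step was -0.39, beside -0.02 for all genes, and none of the 17 was called. Count and size lean on replicate 2 at 1 µM, an array with a raised ribosomal RNA control. Against replicate 1 alone, the 5 µM means of Chac1 (8.33 against 8.12) and Slc3a2 (11.46 against 11.39) were higher. So were Vldlr (8.71 against 8.58) and Ppp1r15a (9.06 against 8.88), with Ddit3 and Atf3 higher either way and the other ATF4-type genes lower. The centred ATF4-type median was 0.15 and 0.49 at 1 µM (replicates 1 and 2), against -0.13 and -0.07 at 5 µM. Asns, which makes asparagine, was at 13.03 and 12.72 in untreated CDKO cells, 12.51 and 13.04 at 1 µM and 12.33 and 12.01 at 5 µM, against 12.33 and 12.36 in WT cells at 5 µM and 12.58 and 12.62 in untreated WT cells. Both arrays at 5 µM were below all CDKO arrays of the lower doses, at -0.71 ± 0.25 (SE) against untreated cells (adjusted p = 0.432 in limma). Trib3, a pseudokinase that dampens ATF4 and CHOP, was at 8.83 and 9.37 in untreated CDKO cells, 9.43 and 9.84 at 1 µM and 8.35 and 9.04 at 5 µM, against 9.06 and 9.23 in WT cells at 5 µM and 9.28 and 9.10 in untreated WT cells. Its arrays at 5 µM overlapped those of untreated CDKO cells and lay below both at 1 µM. Chac1, which breaks down glutathione, was at 7.68 and 8.15 in untreated CDKO cells, 8.12 and 9.33 at 1 µM and 8.38 and 8.27 at 5 µM, against 8.52 and 8.36 in WT cells at 5 µM and 8.75 and 8.75 in untreated WT cells. Replicate 2 at 1 µM was the highest of the 10 arrays for Trib3 and Chac1, and both arrays of Chac1 at 5 µM were above the untreated CDKO arrays, at 0.42 ± 0.38 (SE).

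Slc7a5 had the largest negative value of the members at 5 µM in CDKO cells, without passing the test. It stood at 9.44 and 9.85 in untreated CDKO cells, 9.98 and 11.20 at 1 µM and 7.59 and 9.11 at 5 µM, against 8.78 and 8.99 in WT cells at 5 µM and 11.17 and 11.00 in untreated WT cells. The 5 µM arrays of CDKO cells lay below those of the other CDKO groups but differed from each other by more than 1 on the log2 scale. The change was -1.30 ± 0.55 (SE) against untreated cells (adjusted p = 0.552) and -2.24 ± 0.55 against 1 µM (adjusted p = 0.19), both in limma. Its partner Slc3a2, the heavy chain, had group means between 11.21 and 11.73, without a called change. In the serine pathway, Phgdh, Psat1 and Psph, which make serine from a glycolytic intermediate, gave values of -0.08, -0.03 and -0.16 at 5 µM against untreated CDKO cells. The folate enzymes Shmt2 and Mthfd2 gave -0.35 and -0.73, with both Mthfd2 arrays at 5 µM (9.79 and 9.82) below both untreated CDKO arrays (10.61 and 10.47).

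Counted over both groups of genes, 0 of 35 members were called at 5 µM against untreated CDKO cells, beside 0.145% of all probe sets, and 4 (11.4%) had an unadjusted p under 0.05 (Atf3, Asns, Mthfd2 and Slc7a5), beside 8.89%. At 1 µM against untreated 0 were called, beside 0% of all probe sets, and none of the members had an unadjusted p under 0.05, where 710 of 20681 probe sets did. At 5 µM against 1 µM 0 were called, beside 0.169%, with 6 (17.1%) at an unadjusted p under 0.05, beside 12.9%. The median log2 change of the ATF4-type genes was 0.26 at 1 µM and -0.29 at 5 µM, both against untreated CDKO cells, and that of the ER group was 0.14 and -0.11. All genes had medians of 0.00 and -0.01. Arrays of both groups did not overlap for 10 members at 1 µM and 13 at 5 µM, and for 15 between the doses. That is 28.6%, 37.1% and 42.9% of members, beside 22.8%, 30.6% and 35.1% of all probe sets. By group it was 47.1%, 52.9% and 58.8% of the 17 ATF4-type genes, and 11.1%, 22.2% and 27.8% of the 18 ER genes. The ATF4-type genes thus lay above the share of all probe sets and the ER genes below it. Without replicate 2 of 1 µM, an array of raised 18S, the medians at that dose were 0.16 for the ATF4-type genes and -0.02 for the ER group, and over all left-out arrays the first ran from 0.13 to 0.39 and the second up to 0.35. At 5 µM the ER median was 0.16 without replicate 1 of that dose, and the ATF4-type median was then -0.15 and was -0.11 without replicate 2 of untreated CDKO cells. Leaving out replicate 1 at 1 µM brought 4 calls between the doses (11.4%, beside 9.19% of all probe sets in that fit), with Atf3 at 1.33 and Dnajb9 at 1.16 higher at 5 µM and Slc7a5 at -2.85 and Shmt2 at -1.28 lower. Leaving out replicate 2 at 5 µM brought 1, Atf5 at -2.28, beside 1.42%.

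**Figure D3:**
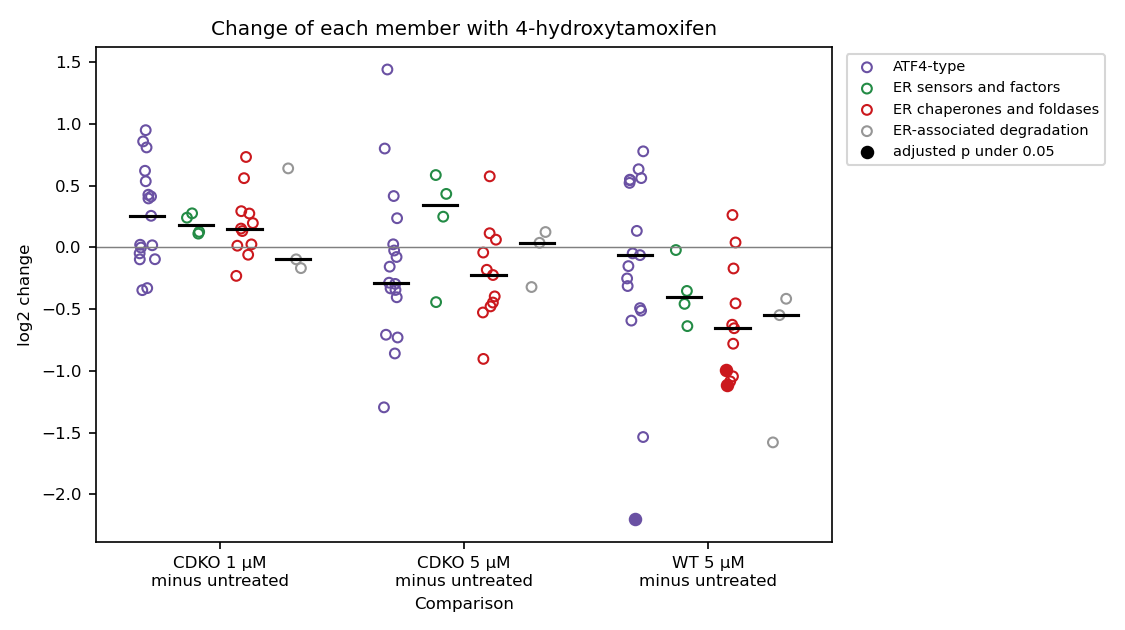
log2 change of each member (points) with OHT in CDKO cells at 1 µM, CDKO cells at 5 µM and WT cells at 5 µM, each against untreated cells of its line, by role; bars are medians, filled points passed an adjusted p of 0.05. The 3 filled points are Slc7a5, Pdia6 and Dnajc3 in WT cells, where chaperones and foldases have a median of -0.66.

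The ER genes of CDKO cells showed no common shift at 5 µM against untreated cells, with 8 positive and 10 negative values. At 1 µM against untreated cells 14 were positive and 4 negative. At 5 µM against 1 µM 6 were positive and 12 negative, with a median of -0.28. Both of these counts lean on replicate 2 at 1 µM. The centred ER median was -0.005 and 0.38 at 1 µM (replicates 1 and 2), against 0.04 and 0.03 in untreated CDKO cells. Hspa5, the chaperone BiP, stood at 14.24 and 13.83 in untreated CDKO cells, 13.83 and 14.63 at 1 µM and 14.19 and 14.11 at 5 µM, against 13.52 and 13.56 in WT cells at 5 µM and 14.65 and 14.60 in untreated WT cells. Its CDKO groups overlapped, and the change at 5 µM was 0.11 ± 0.29 (SE), with a 95% interval of -0.56 to 0.79. Hsp90b1, the ER form of HSP90, stood at 13.75 and 13.86 in untreated CDKO cells, 13.81 and 14.11 at 1 µM and 13.31 and 13.93 at 5 µM, against 13.46 and 13.49 in WT cells at 5 µM and 14.19 and 14.07 in untreated WT cells. Its CDKO groups overlapped too, at -0.18 ± 0.25 (SE) for 5 µM. Xbp1, the factor downstream of IRE1, stood at 12.49 and 11.94 in untreated CDKO cells, 12.06 and 12.61 at 1 µM and 11.74 and 11.79 at 5 µM, against 11.93 and 11.96 in WT cells at 5 µM and 12.63 and 12.53 in untreated WT cells. On the probe set used, both arrays at 5 µM were below both untreated arrays in each line, by 0.44 ± 0.27 in CDKO cells and by 0.64 ± 0.27 in WT cells (SE), and neither value passed (adjusted p = 0.754 and 0.155 in limma). Another Xbp1 probe set, 1420886_a_at, overlapped in CDKO cells and had both treated arrays above both untreated ones in WT cells, at 0.23. In WT cells 1420011_s_at and 1420012_at were at -0.25 and -1.31. The probe set used does not tell spliced from unspliced Xbp1.

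Eif2ak3, the sensor PERK, stood at 8.91 and 9.26 in untreated CDKO cells, 9.46 and 9.26 at 1 µM and 9.11 and 9.92 at 5 µM, against 8.67 and 8.89 in WT cells at 5 µM and 8.80 and 8.81 in untreated WT cells. Its CDKO doses overlapped, and all 6 CDKO arrays were above the 4 WT arrays. Herpud1, a scaffold of ER-associated degradation, stood at 9.75 and 9.41 in untreated CDKO cells, 9.27 and 9.71 at 1 µM and 9.23 and 9.30 at 5 µM, against 9.03 and 9.21 in WT cells at 5 µM and 9.53 and 9.53 in untreated WT cells. Both lines had lower values on both arrays at 5 µM than on both untreated arrays, at -0.32 ± 0.23 in CDKO cells and -0.42 ± 0.23 in WT cells (SE), without passing. Dnajb9, a co-chaperone and IRE1 target, had the largest positive value among ER chaperones in CDKO cells at 5 µM, 0.57 ± 0.26 (SE, adjusted p = 0.592 in limma). The values of the ER group differed in sign between the spike-in classes, with a median at 5 µM minus untreated of -0.40 between the arrays of the higher spike-in class and 0.18 between those of the lower class.

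In WT cells at 5 µM OHT most chaperone genes had lower values than in untreated WT cells, and 3 members passed the test. All 3 fell, namely Pdia6, Dnajc3 and Slc7a5. That is 8.57% of the members, beside 9.23% of all probe sets called and 5.73% called lower, so the share of members called is close to the background. Pdia6, which forms and rearranges disulphide bonds in the ER, stood at 10.80 and 10.83 in WT cells at 5 µM, against 11.92 and 11.94 in untreated WT cells. The groups did not overlap, and the change was -1.12 ± 0.26 (SE, adjusted p = 0.0413 in limma). Its CDKO arrays ran between these, at 11.69 and 11.40 untreated, 11.49 and 12.15 at 1 µM and 11.42 and 11.22 at 5 µM, the exception being the higher array at 1 µM.

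Dnajc3 (P58IPK), a co-chaperone of BiP that also restrains PERK, stood at 10.13 and 10.07 in WT cells at 5 µM, against 10.97 and 11.22 in untreated WT cells. The change was -0.99 ± 0.24 (SE, adjusted p = 0.0481 in limma). Untreated WT cells stood apart here, since the CDKO arrays were at 10.30 and 9.87 untreated, 9.95 and 10.10 at 1 µM and 9.93 and 10.37 at 5 µM, all below both untreated WT arrays. Slc7a5 (values above) changed by -2.20 ± 0.55 (SE, adjusted p = 0.0495 in limma), with both WT arrays at 5 µM below both untreated ones. Hspa5 missed the threshold at -1.09 ± 0.29 (SE, adjusted p = 0.0578). A further Hspa5 probe set, 1427464_s_at, was called at -0.98 (adjusted p = 0.0465 in limma). Hsp90b1 was at -0.66 ± 0.25 (adjusted p = 0.128) and Sel1l, the partner of the HRD1 ubiquitin ligase, at -1.58 ± 0.46 (adjusted p = 0.0713). The plots of single members show untreated WT cells above WT cells at 5 µM for each of these genes shown.

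**Figure D4:**
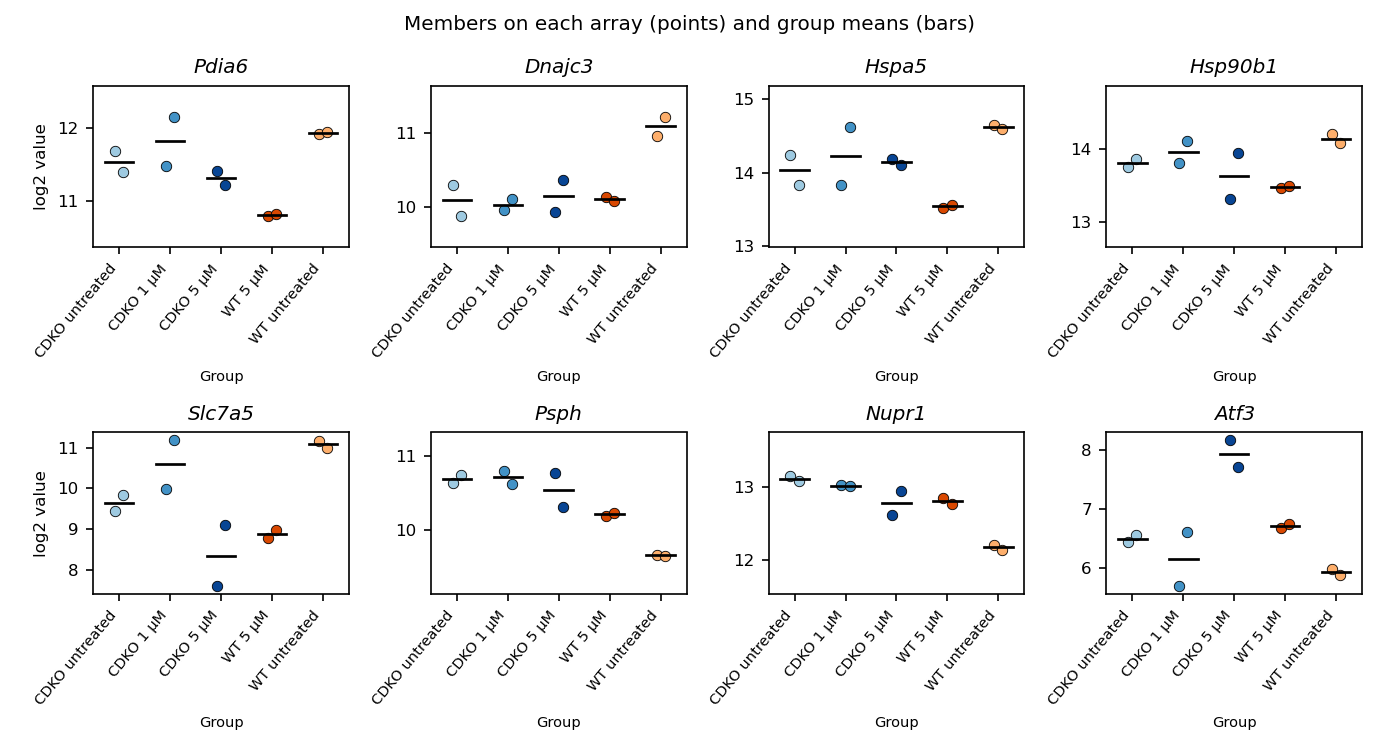
log2 value of 8 members on each array (points) with the group mean (bars), for CDKO cells untreated, at 1 µM and at 5 µM and WT cells at 5 µM and untreated. In WT cells, Pdia6 is at 10.80 and 10.83 at 5 µM, against 11.92 and 11.94 untreated, while the 2 arrays of a CDKO group are often further apart.

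Of the 18 ER genes, 16 had a negative value in WT cells, with a median of -0.59, and the 11 chaperones and foldases had a median of -0.66, beside -0.09 for all genes. With the probe sets of a gene averaged, the ER median was -0.32. The ATF4-type genes had 10 negative and 7 positive values and a median of -0.06, or -0.20 with averaged probe sets. WT arrays did not overlap for 30 of 35 members (8 above and 22 below), or 85.7%, beside 83% of all probe sets. Within the ER group 14 lay below and 1 (Dnajb9) above, where 43.9% of all probe sets lay below and 39.1% above. When the 4 WT arrays were fitted alone, 23 members were called, 6 of them higher, all ATF4-type, and 17 lower, 12 of them ER genes. That is 65.7% of members, beside 54.7% of all probe sets (24.3% higher and 30.4% lower). Carriers of the ER stress element had a median of -0.78 (7 genes, 6 negative, 2 called), and the 9 ER genes whose window lacks it had a median of -0.42 (8 negative, 0 called). Canx was the carrier with a positive value, at 0.04 ± 0.25 (SE).

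These WT values move with other features of the arrays. The dividing-cell markers stood at -0.56 and -0.50, centred, in WT cells at 5 µM, against 1.74 and 1.81 in untreated WT cells, which also had the raised 18S and the larger Gapdh difference. Untreated WT cells also stood apart in epithelial and skeletal muscle markers, of which 3 of 5 each were higher on both of their arrays than on the 8 others. The mean level of the 5 epithelial markers was 4.00 to 4.01 in WT cells at 5 µM, against 6.14 on both arrays of untreated WT cells, with Krt8 at 2.97 and 2.98, against 8.59 and 9.04. The mean of the 5 muscle markers was 3.43 to 3.47 in WT cells at 5 µM, against 5.23 to 5.24 in untreated WT cells, with Myh3 at 3.28 and 3.42, against 6.64 and 6.75. Epcam, Cldn4, Myog and Tnnt3 had means under 4 in every group, and the part of such cells in the changes was not tested. Both arrays of the untreated group carry these features, so they and the treatment cannot be told apart. Among CDKO cells, replicate 2 at 1 µM shared the raised 18S, the dividing-cell markers (0.90) and the high chaperone median (0.48). The other array at that dose had 5.21, -0.62 and 0.01 for the same measures. The calls also depend on single arrays. Leaving out any of the 4 WT arrays leaves a group of 1 array, and calls fell away there among members as over all probe sets. Leaving out either CDKO array at 1 µM, which lowers the pooled spread, raised the numbers called among members and over all probe sets.

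Among ATF4-type genes in WT cells, none passed in the upward direction on the probe set used, a direction in which 3.51% of all probe sets were called. Nupr1, a small stress-induced chromatin protein, stood at 12.85 and 12.76 in WT cells at 5 µM, against 12.21 and 12.14 in untreated WT cells, at 0.63 ± 0.19 (SE, adjusted p = 0.079 in limma). Its other probe set, 1419666_x_at, was called higher at 1.27 (adjusted p = 0.0168). Psph, which completes serine synthesis, stood at 10.19 and 10.22 in WT cells at 5 µM, against 9.65 and 9.64 in untreated WT cells, at 0.56 ± 0.22 (adjusted p = 0.13). Phgdh (0.55), Psat1 (0.52) and Atf3 (0.78) also had both treated arrays above both untreated ones, as did 39.1% of all probe sets. A second Psat1 probe set, 1454607_s_at, separated the other way, at -0.17. The WT arrays of Atf4, by contrast, overlapped on the probe set used, at -0.06 with a 95% interval of -0.52 to 0.39. Trib3 did not separate there either, at -0.05, with an interval of -0.77 to 0.67. Second probe sets of Atf4 (1438992_x_at, -0.77) and Trib3 (1456225_x_at, -0.57) had both treated arrays below both untreated ones, and neither was called.

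The CDKO change at 5 µM was also set against the WT change, in limma. This test called 0 of 35 members, beside 0.348% of all probe sets, and 8 members (22.9%) had an unadjusted p under 0.05, beside 12.5%. Hspa5 had the largest positive difference among chaperones, the CDKO change minus the WT change being 1.20 ± 0.41 (SE, 95% interval 0.24 to 2.16, adjusted p = 0.312 in limma). Dnajc3 gave 1.05 ± 0.35 (adjusted p = 0.293) and Pdia6 0.89 ± 0.37 (adjusted p = 0.387). On the other side, Nupr1 gave -0.97 ± 0.27 (adjusted p = 0.237), from a change of -0.33 in CDKO cells and 0.63 in WT cells. The median difference was 0.46 for the ER group and -0.19 for the ATF4-type genes, beside 0.09 for all genes. That the chaperones passed in WT cells and not in CDKO cells is therefore no shown difference between the lines.

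Before treatment, CDKO cells had more Psph and Nupr1 transcript than WT cells. Both rose, 2 of 35 members or 5.71%, beside 6.58% of all probe sets called and 2.3% called higher. Psph stood at 10.64 and 10.75 in untreated CDKO cells, 10.81 and 10.62 at 1 µM and 10.77 and 10.31 at 5 µM, against 9.65 and 9.64 in untreated WT cells. The difference of untreated CDKO minus untreated WT cells was 1.05 ± 0.22 (SE, adjusted p = 0.0345 in limma). Nupr1 stood at 13.14 and 13.07 in untreated CDKO cells, 13.02 and 13.01 at 1 µM and 12.61 and 12.94 at 5 µM, against 12.21 and 12.14 in untreated WT cells. For Nupr1 this difference was 0.94 ± 0.19 (adjusted p = 0.0345). Neither overlapped, and the WT cells at 5 µM (values above) also lay above untreated WT cells for both genes. Dnajc3 just missed at -1.01 ± 0.24 (adjusted p = 0.0551), while 3 of its 4 other probe sets had the opposite sign (0.29, 0.63 and 1.26) and 1 was at -0.56. In WT cells at 5 µM these 4 were at -0.81, -0.26, 0.30 and -1.18. Ddit3 was at 0.65 ± 0.20 (adjusted p = 0.0994). The medians were 0.28 for ATF4-type genes and -0.22 for the ER group, beside -0.05 for all genes, and they were -0.02 and 0.10 with the probe sets of a gene averaged. Arrays did not overlap for 28 members (80%), beside 61.3% of all probe sets.

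The lines differed in their other transcripts too. The centred median of macrophage markers was 0.02 and -0.99 in untreated CDKO cells, against 1.13 and 1.16 in untreated WT cells, and its part in these calls was not tested. The epithelial and muscle markers differed more, with a mean level of 3.59 to 4.13 and 3.38 to 3.54 in untreated CDKO cells, against 6.14 and 5.23 to 5.24 in untreated WT cells. The raised 18S lies in the untreated WT group here as well. Both calls were absent when either untreated array of either line or either WT array at 5 µM was left out. Without either 1 µM CDKO array there were 6 calls (17.1%, beside 15.5% of all probe sets), with Chac1, Vldlr, Dnajc3 and Sel1l added as lower in CDKO cells. At 5 µM, CDKO cells set against WT cells gave 0 members called, beside 1.8% of all probe sets, and 6 (17.1%) with an unadjusted p under 0.05, beside 15.6%. These 6 were Ddit3 (0.54), Atf3 (1.23), Eif2ak3 (0.74), Ern1 (1.37), Dnajb9 (0.89) and Edem1 (0.77), a lectin of ER-associated degradation. On the probe sets used, all were higher in value on both CDKO arrays. A second Edem1 probe set, 1424065_at, went the other way, at -0.37. Second probe sets of Ern1 (1421240_at) and Ddit3 (1443897_at) were at 0.23 and 0.29. Arrays did not overlap for 19 members (54.3%), beside 56.8% of all probe sets. The largest, Ern1, was at 8.76 and 9.32 in CDKO cells, against 7.79 and 7.57 in WT cells (adjusted p = 0.132 in limma). Atf3 was called in this comparison when either 1 µM array was left out, beside 2.87% of all probe sets.

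Further genes of the same pathways, on lists written from general knowledge, were read in the same fit. Of 35 other measured integrated stress response genes, 1 was called at 5 µM in CDKO cells against untreated, Slc7a11, the cystine importer. It was also called for treated CDKO cells against the 3 control groups (1.61 ± 0.15, SE, adjusted p = 0.00374 in limma). It stood at 2.78 and 2.73 in untreated CDKO cells, 3.18 and 2.62 at 1 µM and 5.78 and 5.87 at 5 µM, against 2.80 and 2.79 in WT cells at 5 µM and 2.72 and 2.69 in untreated WT cells. The CDKO cells at 5 µM alone were above 4, so Slc7a11 entered the fit only through the group where it is high. Its calls are therefore no independent support, and the call for treated CDKO cells rests on the 5 µM arrays. Its change of 3.07 ± 0.23 (SE, adjusted p = 0.0114 in limma) has values at background on its untreated side and gives no ratio of amounts. In WT cells at 5 µM against untreated, 5 of the 35 (14.3%) were called, beside 9.23% of all probe sets. Ddit4, an inhibitor of mTORC1 (0.83), Cth, which makes cysteine (1.64), and Ero1a, the ER oxidase (0.90), rose, while the amino acid carriers Slc7a1 (-1.56) and Slc38a2 (-1.11) fell. Ero1a had almost the same levels at 5 µM in both lines, 11.47 and 11.41 in CDKO cells and 11.36 and 11.40 in WT cells, against 10.45 and 10.47 in untreated CDKO cells and 10.49 and 10.48 in untreated WT cells.

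Of 39 other measured ER genes, 2 (5.13%) were called in WT cells at 5 µM, both lower, beside 9.23% of all probe sets. They were Uggt1, the sensor of misfolded glycoproteins (-1.42 ± 0.34, adjusted p = 0.0445 in limma), and Edem3, a mannosidase of ER-associated degradation (-1.17 ± 0.23, adjusted p = 0.0266). The median of these 39 was -0.23, with 26 negative values. In CDKO cells 0 of the 39 were called at 5 µM against untreated, with a median of -0.05. Pdia3, the foldase that works with calnexin, rose in untreated CDKO cells (13.49 and 13.85) against untreated WT cells (11.10 and 12.17), by 2.03 ± 0.46 (adjusted p = 0.0431 in limma). Cth and Ddit4 also rose in that comparison (1.85 and 0.83), and Mthfd1l, a mitochondrial folate enzyme, fell (-1.15). The 12 measured genes of the eIF2 machinery had 0 calls in each of the 8 comparisons.

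The choice of probe set matters for several members. A total of 22 members had more than 1 tested probe set, and the sign of the change differed among them for 11 at 5 µM in CDKO cells and 11 at 5 µM in WT cells, while no member was called in opposite directions. All 3 probe sets of Hspa5 had lower values in WT cells at 5 µM (-1.09, -0.98 and -1.13), while in CDKO cells at 5 µM 1447824_x_at was at -0.61 and the others at 0.11 and 0.05. Sel1l split. Its main probe set was high where a second one, 1430692_a_at, was low, at 5.16 and 5.73 in untreated WT cells and 5.22 on replicate 2 of CDKO at 1 µM, and between 7.13 and 8.13 on the other arrays. Canx and Hsp90b1 each had a second probe set with its low values on some of the same arrays, the ones of raised 18S. The Canx probe set 1422845_at was at 10.74 and 10.56 in untreated WT cells and 10.79 on replicate 2 of CDKO at 1 µM, and at 11.42 or higher elsewhere. The part of RNA quality in this was not tested.

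**Figure D5:**
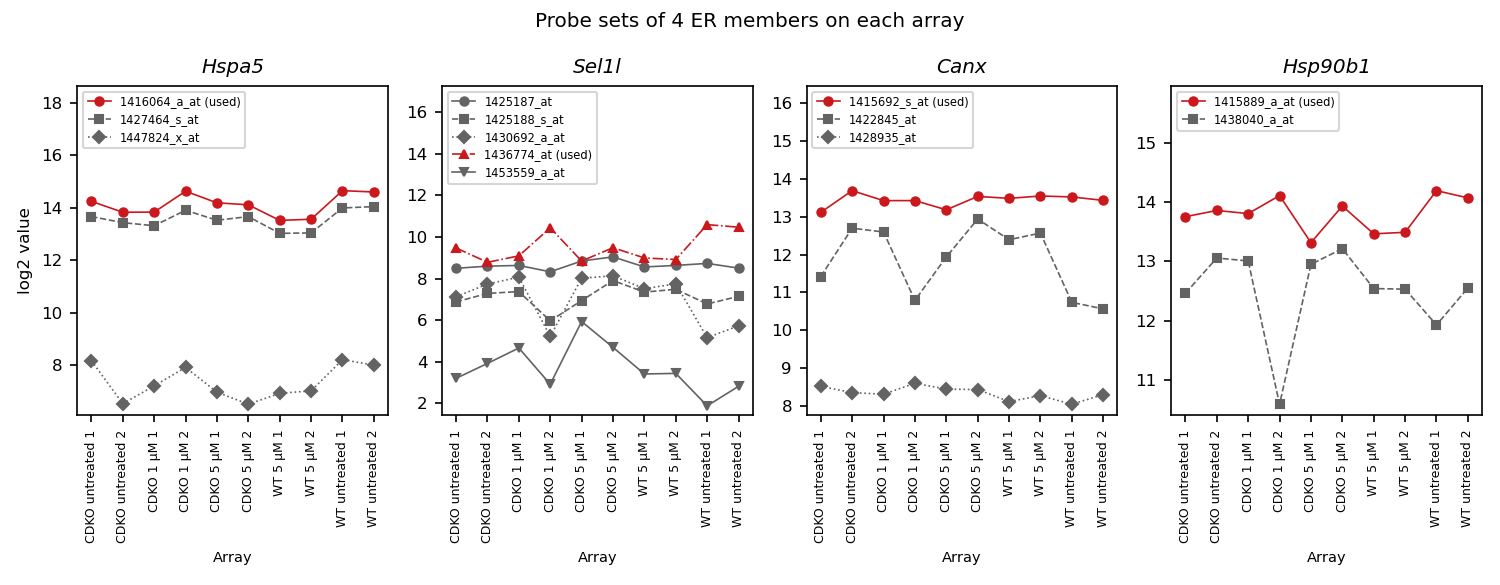
log2 value of every tested probe set of Hspa5, Sel1l, Canx and Hsp90b1 on each array (red, the probe set used; grey, others). For Sel1l the probe set used peaks in untreated WT cells and on replicate 2 of CDKO at 1 µM, where 1430692_a_at dips to between 5.16 and 5.73.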

How the data were processed

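RNA of 10 samples was measured on Affymetrix arrays. The authors deposited log2 values for each probe set, and GCRMA is the tool named, without a version, per the submitters' processing notes. The chip definition is not known here. Of 45101 probe sets, 64 were controls, 34958 had 1 gene symbol, 932 several and 9211 none. The 20681 non-control probe sets with a group mean of at least 4 were fitted with limma 3.58.1 under R 4.3.3, using lmFit and eBayes with a mean for each of 5 groups, which left 5 residual degrees of freedom. P-values were adjusted by Benjamini-Hochberg over all 20681. The spread in the fit is pooled over groups, while the median SD of the members between arrays was 0.248, 0.313 and 0.298 in CDKO cells (5 µM, 1 µM, untreated) and 0.0611 and 0.0689 in WT cells (5 µM, untreated). The pooled spread is thus too small for CDKO groups and too large for WT groups. The small number of arrays limits the precision.

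The members, their division into groups and the further lists were chosen with earlier results of these data known. By rule, values on every array are given for members called in at least 1 of 8 comparisons (5 of 35) and for Atf4, Ddit3, Asns, Trib3, Chac1, Hspa5, Hsp90b1, Herpud1, Xbp1 and Eif2ak3, and up to 4 called genes are named per further list (all 5 are named where 5 were called). Other members shown by array, among them Atf3, were chosen after their values were seen. Replicate numbers were not taken as pairs, because the deviations of same-numbered arrays had a correlation of -0.453 between 1 µM and untreated CDKO cells, although it was 0.431 between 5 µM and untreated. Alternatives tried were a filter at 6 or none, array weights, quantile normalization, median centring, a robust prior with a trend, a replicate block, a block for the spike-in class, the compared groups alone, 1 probe set per gene, averaged probe sets, leaving out each array in turn and, for treated CDKO cells against controls, models with line as a term or with only 2 groups. Fits without untreated WT cells and without the 3 arrays of raised 18S, and the order of group means without 1 array, were chosen after seeing the data.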

Additional observations from a re-analysis of the deposited data

How the results depend on the processing

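Each count of called members was recomputed under the alternatives. The number of probe sets called moved as well and is given below for only some settings. The counts alone thus do not tell if members moved more than other genes. At 5 µM and at 1 µM against untreated CDKO cells, and for the difference between the lines, it was 0 under every alternative run, left-out arrays included. For treated CDKO cells against the 3 control groups it was 1 without a filter (Mthfd2) and 1 with the spike-in block (Hyou1), and ranged from 0 to 2 over left-out arrays. For 5 µM against 1 µM it ranged from 0 to 4 over left-out arrays and was 0 otherwise. In WT cells (3 calls) it was 1 without a filter, 1 with a filter at 6, 1 with 1 probe set per gene, 5 with a trended robust prior, 24 with array weights, 23 with the WT arrays alone and 0 to 9 over left-out arrays. For untreated CDKO against untreated WT cells (2 calls) it was 5 with array weights, 4 with the spike-in block, 0 with the compared groups alone and 0 to 6 over left-out arrays. At 5 µM, CDKO against WT cells gave 1 with the spike-in block (Hyou1) and 0 to 1 over left-out arrays. No direction of a called member turned. The Pdia6 change in WT cells ran from -1.18 to -1.01, that of Dnajc3 from -1.12 to -0.59 and that of Slc7a5 from -2.30 to -2.10, and the adjusted p of each was above 0.05 in some fits. The causes were not tested.

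With a replicate block the WT count was 1 and the count between the untreated lines was 0, and the other 6 counts did not move. The numbers do not pair the arrays, so a call lost there is no sign of a weaker effect. Over all probe sets, calls at 5 µM against untreated CDKO cells numbered 30, beside 3 with the replicate block, 2 with array weights, 12 with median centring and 0 for the compared groups alone. In WT cells they numbered 1909, beside 12458 with array weights, 11308 for the WT arrays alone and 756 with 1 probe set per gene. With 2 arrays a group, a single array can decide such counts.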

Other observations

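The eIF2 machinery, read through 12 genes, had a median log2 change of -0.06 at 5 µM and -0.02 at 1 µM in CDKO cells against untreated, and of 0.18 at 5 µM in WT cells against untreated. Untreated CDKO cells against untreated WT cells gave a median of 0.29 for these genes, with 9 positive and 3 negative values. In no comparison was a gene of this list called. Hyou1 differed widely between the arrays of a group, with 8.24 and 10.33 in untreated CDKO cells, 9.76 and 10.28 at 1 µM and 7.48 and 10.04 at 5 µM, against 8.92 and 9.08 in WT cells at 5 µM and 9.99 and 10.09 in untreated WT cells. Its 95% interval for 5 µM against untreated CDKO cells ran from -2.61 to 1.55. Pdia4 had 7.87 and 11.01 on the 2 arrays of CDKO cells at 5 µM, the widest gap within a group among the members. Both genes, and Sdf2l1 at 6.97, had their lowest value on replicate 1 of that group, as did the other members named above for that array.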
